A study of Mus musculus with 35 samples.

Results

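Mammalian genomes carry methyl groups mainly on the cytosines of CpG dinucleotides, and 9 genes that write, erase or read this mark were followed in hematopoietic stem and progenitor cells (HSPCs). Dnmt1 and Uhrf1 act in maintenance, Dnmt3a and Dnmt3b in de novo methylation, Tet1, Tet2 and Tet3 in oxidation of the mark, and Mbd1 and Mbd2 in its recognition. The 9 were chosen by name for these functions. All 9 were found among the 11982 gene names of the RNA-seq table, and all 9 were among the 11863 genes that entered the test. The table holds RPKM, read density normalized to transcript length and to library size, so that levels of different genes can be set side by side per length.

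The study compared mice lacking JMJD1B, a JmjC-domain histone demethylase encoded by Kdm3b, with wild-type (WT) mice. RNA-seq was made from polyA RNA of HSPCs purified from bone marrow, with 2 libraries per genotype. Both genotypes were of the 129P2xC57BL/6J strain, the JMJD1B-/- mice carried a germline gene-trap knockout derived from embryonic stem cells, and the methods describe male and female adult mice. The study names littermates for its ChIP libraries, and whether the RNA libraries came from littermates is not given in the sources used here. The labels do not say whether a library came from 1 animal or from several, so p-values measure the spread between these libraries. The remaining 31 samples of the series are ChIP and input libraries and were not used here.

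DNA methylation is copied at each division: UHRF1 recognises hemimethylated CpG behind the replication fork and brings DNMT1, which methylates the new strand. DNMT3A and DNMT3B place methyl groups on sites that had none, and they are known in hematopoiesis for their part in stem cell differentiation, with DNMT3A among the genes most often mutated in clonal hematopoiesis. TET enzymes, iron and 2-oxoglutarate dependent dioxygenases of the same superfamily as the JmjC demethylases, oxidise 5-methylcytosine to 5-hydroxymethylcytosine and beyond, and TET2 is likewise a frequent target of mutation in myeloid disease. MBD1 and MBD2 bind methylated CpG and recruit repressors, MBD2 as part of the NuRD deacetylase and remodelling complex.

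In the RefSeq annotation of GRCm38.p6, Dnmt1 lies on chromosome 9, Uhrf1 on 17, Dnmt3a on 12, Dnmt3b on 2, Tet1 on 10, Tet2 on 3, Tet3 on 6, and Mbd1 and Mbd2 both on 18. RefSeq promoter windows of the GRCm38.p6 assembly were examined for 7 of the 9 genes, in 12 entries. Those of Mbd1 and Mbd2 were not examined here, and whether RefSeq holds them is not stated. The sequence before the first base of the gene is shown for 1 maintenance pair, 1 de novo writer and 1 eraser. CpG content is the feature that the encoded enzymes act on. Each is written 5′ to 3′ along the gene's own strand with every CpG in capitals. The windows of Tet2, Tet3 and Dnmt3a lie wholly inside the annotated span of the gene and are described by counts. The stretch shown for Tet1 also overlaps the non-coding gene Gm51805.

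Dnmt1, chr9:20959889.0-20960138.0, minus strand: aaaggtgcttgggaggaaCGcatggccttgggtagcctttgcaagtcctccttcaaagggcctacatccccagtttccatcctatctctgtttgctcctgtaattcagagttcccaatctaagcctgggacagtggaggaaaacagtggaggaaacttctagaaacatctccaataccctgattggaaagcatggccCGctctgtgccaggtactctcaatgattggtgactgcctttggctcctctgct

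Uhrf1, chr17:56303087.0-56303336.0, plus strand: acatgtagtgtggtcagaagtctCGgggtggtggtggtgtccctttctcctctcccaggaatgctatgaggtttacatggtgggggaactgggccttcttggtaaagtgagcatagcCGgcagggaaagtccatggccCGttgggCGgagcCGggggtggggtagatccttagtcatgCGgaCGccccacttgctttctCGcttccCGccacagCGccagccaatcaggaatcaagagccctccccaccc

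Dnmt3b, chr2:153649199.0-153649410.0, plus strand: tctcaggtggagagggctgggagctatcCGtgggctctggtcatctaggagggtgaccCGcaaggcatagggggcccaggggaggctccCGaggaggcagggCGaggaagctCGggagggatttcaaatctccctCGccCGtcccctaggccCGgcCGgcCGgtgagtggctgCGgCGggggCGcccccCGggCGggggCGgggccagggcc

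Tet1, chr10:62887470.0-62887574.0, minus strand: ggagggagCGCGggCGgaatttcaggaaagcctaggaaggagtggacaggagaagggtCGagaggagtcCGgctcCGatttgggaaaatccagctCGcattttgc

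In the full 250 bases before a start, the median of all 32851 RefSeq entries was 6 CpG. The first start of Dnmt1 had 2 CpG, and 18.8% of entries had fewer, whereas its other 2 starts had 7 and 26. The starts of Uhrf1 had 10 and 30 CpG, Dnmt3b had 21, Tet1 had 15, Tet3 had 17, and the 3 starts of Dnmt3a had 38, 40 and 15. Tet2 had 51 CpG, and 99.9% of all entries had fewer. A search on both strands for the E2F motif TTTCCCGC, TTTCGCGC, TTTGCCGC or TTTGGCGC found a match in 2 of the 12 entries, the third start of Dnmt1 and the second of Uhrf1, and in 1.86% of all entries. The GC box GGGCGG, which can share bases with an E2F match, was found in 10 of the 12 entries and in 32.7% of all. The 12 entries belong to 7 genes, and the first 2 windows of Dnmt3a overlap. The shares over all entries were not matched for CpG content. The motif matches are matches of letters and were not tested as binding sites. Which of the starts HSPCs use was not tested.

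The 4 libraries differed in depth. Ratios between low values gave about 17.5 and 24.6 M mapped reads for the WT libraries and about 6.1 and 21.0 M for the JMJD1B-/- libraries, so that 3 reads on 1 kb correspond to 0.122 to 0.171 RPKM in WT and to 0.491 and 0.143 RPKM in JMJD1B-/- replicates 1 and 2. Kdm3b was at 31.0 and 24.3 RPKM in WT and at 4.00 and 4.63 RPKM in JMJD1B-/-, so the targeted gene was low in both libraries labelled JMJD1B-/-. WT replicate 2 was the library with Xist RNA, at 332 RPKM against at most 0.0510 RPKM in the others, and was also the one with low Y-linked RNA, while both JMJD1B-/- libraries had Y-linked RNA and no more than traces of Xist. For the 9 genes and the named genes of their pathway, values without single libraries are given where these moved the fold change by over 1.5 times or ended a call.

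Of the markers of stem and progenitor cells, 13 of 13 were in the table, and Kit, the stem cell factor receptor, was at 66.9 and 62.5 RPKM in WT and at 51.6 and 92.7 RPKM in JMJD1B-/-. Ly6a, which encodes the stem cell antigen Sca-1, reached at most 2.96 RPKM. Over the whole list, 10 of the 13 were below 0 in log2 fold change, against 53.0% of all genes. At an unadjusted p under 0.05 (limma), 5 were called lower, against 6.33% of all genes, and the median was -0.64. Marker lists of other cells differed between genotypes as well. All 10 erythroid markers were higher in both JMJD1B-/- libraries than in both WT libraries, which held for 20.1% of all genes. Their summed levels were 490 and 736 RPKM in WT and 1336 and 1931 RPKM in JMJD1B-/-. All 8 basophil and mast cell markers found were lower in both JMJD1B-/- libraries than in both WT libraries, which held for 22.7% of all genes. Their sums were 579 and 629 RPKM in WT and 141 and 93.3 RPKM in JMJD1B-/-. These lists and the gene differences described here come from the same libraries, and the part of the lists in those differences was not tested. In bulk RNA, fewer cells of a type and less RNA per cell cannot be told apart.

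The question for the 9 genes was whether their RNA differed between WT and JMJD1B-/- HSPCs. Tet1 was lower in JMJD1B-/- at an unadjusted p under 0.05 and no gene was higher, so 1 of 9 was called in the lower direction, where 6.33% of all genes tested were, and 0 of 9 in the higher direction, where 3.81% were (10.1% in either direction). No gene of the 9 passed the threshold after Benjamini-Hochberg adjustment over all genes tested (limma), a threshold that 0.0421% of all genes passed. In 5 genes, Dnmt3a, Dnmt3b, Tet1, Tet2 and Mbd1, each JMJD1B-/- value was under each WT value, and in Uhrf1 alone each was over. Such separation was found in 22.7% of all genes in the lower and in 20.1% in the higher direction (42.9% in either). Across the 9 the log2 fold changes had a median of -0.14, against -0.02 over all genes tested. The smallest two-sided p of an exact permutation test with 2 libraries a side is 0.333, and the tests given are limma's on log2(RPKM + 0.1).

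**Figure D1:**
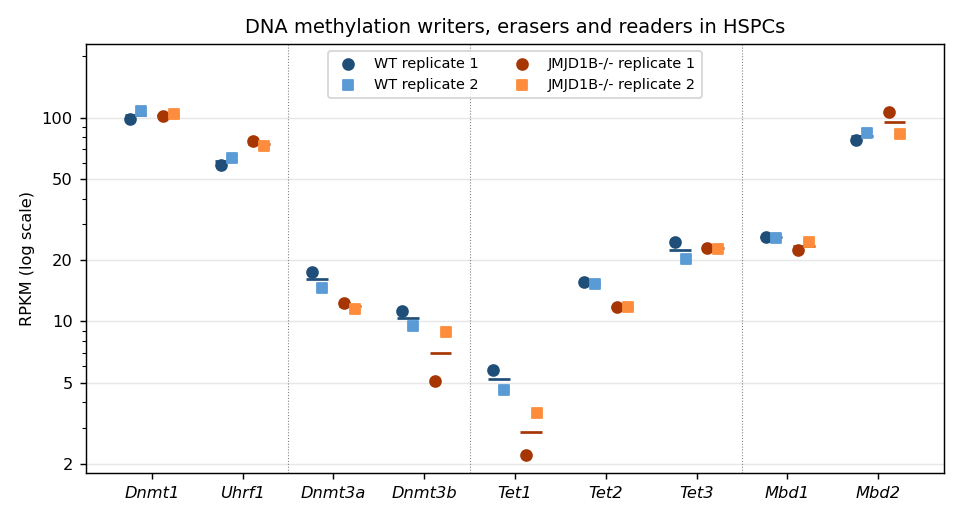
RPKM on a log scale of the 9 genes in each of the 4 HSPC libraries (points) with the mean of each genotype (short lines), grouped by role as maintenance, de novo, oxidation and recognition. Dnmt1 lies near 100 RPKM in all 4 libraries, and Tet1 is the lowest of the 9 in each genotype, from 4.62 to 5.75 RPKM in WT and from 2.20 to 3.53 RPKM in JMJD1B-/-.

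Dnmt1, the maintenance methyltransferase, was at 98.1 and 107 RPKM in WT and at 102 and 104 RPKM in JMJD1B-/- HSPCs. The JMJD1B-/- values lay between those of WT. Its means were 103 ± 6.58 and 103 ± 1.58 RPKM (SD, n = 2 each). The difference on the log2 scale was 0.01 with a 95% interval from -0.39 to 0.40 (limma, adjusted p = 0.993). The interval leaves room for a difference of up to 0.40 on the log2 scale in either direction. The sign of so small a difference was not stable, since it was -0.09 after quantile normalization, -0.06 without WT replicate 1 and -0.0071 without JMJD1B-/- replicate 2.

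Uhrf1, the partner that directs DNMT1 to hemimethylated DNA, was at 58.6 and 63.4 RPKM in WT and at 76.9 and 72.2 RPKM in JMJD1B-/-. Both JMJD1B-/- libraries were above both WT libraries, with a mean at 122.1% of WT. The log2 fold change was 0.29 with a standard error of 0.17, and it did not pass the threshold (limma, adjusted p = 0.605). It ranged from 0.23 to 0.35 when each library was left out in turn. Within each library, the ratio of Uhrf1 to Dnmt1, which does not depend on library scaling, was 0.597 and 0.591 in WT and 0.752 and 0.692 in JMJD1B-/-. Uhrf1 is transcribed mainly in dividing cells, and proliferation genes stood beside it: in 15 of 20 each JMJD1B-/- value was over each WT value, against 20.1% of all genes, 3 of 20 were called higher, against 3.81%, and their median log2 fold change was 0.26. Without WT replicate 1 that median was 0.13 and 0 were called, and without WT replicate 2 it was 0.39 and 1 was called. Their part in the level of Uhrf1 was not tested.

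Dnmt3a, a de novo methyltransferase, was at 17.5 and 14.6 RPKM in WT and at 12.3 and 11.5 RPKM in JMJD1B-/-. The groups did not overlap, with means of 16.0 ± 2.04 RPKM in WT and 11.9 ± 0.527 RPKM in JMJD1B-/- (SD, n = 2 each). The log2 fold change was -0.43 with a 95% interval from -0.93 to 0.08 and did not pass the threshold (limma, adjusted p = 0.567). The difference was -0.30 without WT replicate 1 and -0.55 without WT replicate 2.

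Dnmt3b, the second de novo enzyme, was at 11.2 and 9.49 RPKM in WT and at 5.07 and 8.84 RPKM in JMJD1B-/-. The groups did not overlap, but JMJD1B-/- replicate 2 was nearer to WT replicate 2 than to its own replicate. The log2 fold change was -0.62 with a 95% interval from -1.36 to 0.13 (limma, adjusted p = 0.570). Without JMJD1B-/- replicate 2, which leaves the shallow library alone in its group with the spread taken from WT, it was -1.01 and passed (limma, adjusted p = 0.0462), and without JMJD1B-/- replicate 1 it was -0.22 (limma, adjusted p = 0.657). In replicate 1 the value rested on about 30.9 reads per kb of transcript.

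The de novo enzymes together, as the sum of Dnmt3a and Dnmt3b RPKM, were at 28.7 and 24.1 in WT and at 17.3 and 20.4 in JMJD1B-/-. Their share of all RNA from Dnmt1, Dnmt3a and Dnmt3b was 22.6% and 18.3% in WT and 14.5% and 16.3% in JMJD1B-/-. Dnmt1 accordingly made up 77.4% and 81.7% in WT and 85.5% and 83.7% in JMJD1B-/-. Both JMJD1B-/- libraries thus had a larger Dnmt1 share than either WT library, while the ratio of Dnmt3a to Dnmt3b overlapped, at 1.55 and 1.54 in WT and 2.42 and 1.30 in JMJD1B-/-. The summed RPKM of the 3 methyltransferases was 127 and 132 in WT and 120 and 125 in JMJD1B-/-.

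**Figure D2:**
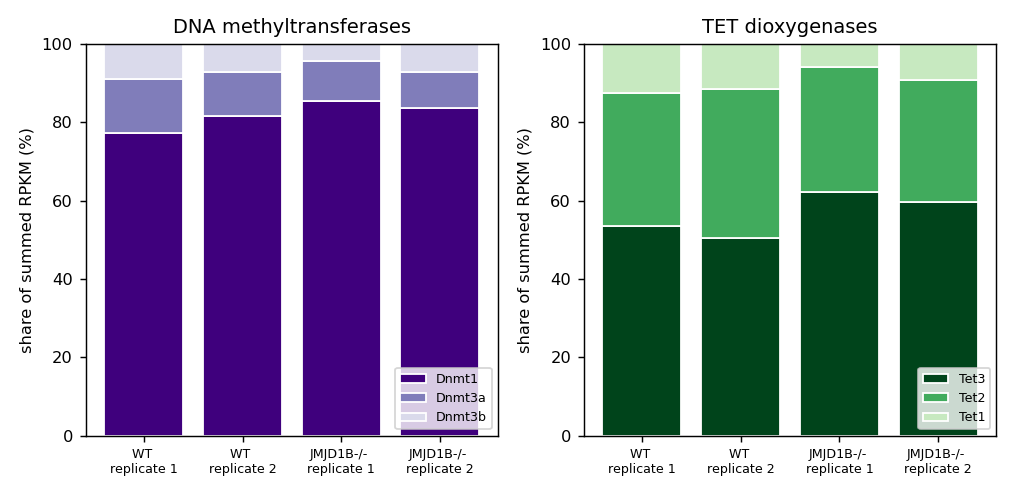
Share in percent of the summed RPKM of the 3 DNA methyltransferases (left) and of the 3 TET dioxygenases (right) in each of the 4 libraries, as stacked bars. Dnmt1 makes up 83.7% to 85.5% of the left bars in JMJD1B-/- and 77.4% to 81.7% in WT, and Tet1 makes up 5.97% to 9.29% of the right bars in JMJD1B-/- and 11.5% to 12.5% in WT.

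Tet1, which carries a CXXC domain and is best known from embryonic stem cells, had the lowest level of the 9 genes. It was at 5.75 and 4.62 RPKM in WT and at 2.20 and 3.53 RPKM in JMJD1B-/- HSPCs. All JMJD1B-/- values were below all WT values, and the mean was at 55.3% of WT. The log2 fold change was -0.86 with a standard error of 0.37 and a 95% interval from -1.73 to -0.0005 (limma, adjusted p = 0.491). The call was at the edge of the threshold, since the unadjusted p was under 0.05 in 8 of the 15 settings of the analysis, and of the 4 that leave out a library only that without JMJD1B-/- replicate 2 kept it. The fold change itself was -0.71 without WT replicate 1, -1.02 without WT replicate 2 and -1.19 without JMJD1B-/- replicate 2. It was -0.53 without the shallow JMJD1B-/- replicate 1, in which Tet1 rested on about 13.4 reads per kb.

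Tet2, the family member that lacks a CXXC domain of its own, was at 15.6 and 15.3 RPKM in WT and at 11.7 and 11.8 RPKM in JMJD1B-/-. The replicates of each genotype nearly coincided and the groups lay apart, with means of 15.4 ± 0.222 and 11.7 ± 0.0457 RPKM (SD, n = 2 each). The log2 fold change was -0.39 with a 95% interval from -0.87 to 0.09 and did not pass (limma, adjusted p = 0.574). It was the steadiest difference of the 9, from -0.41 to -0.38 as each library was left out. Limma estimates the spread of a gene partly from the other genes, and when the spread was taken from Tet2 alone the unadjusted p was under 0.05 (gene-by-gene test, adjusted p = 0.608).

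Tet3 was the most abundant of the family, at 24.6 and 20.3 RPKM in WT and at 22.9 and 22.7 RPKM in JMJD1B-/-. The JMJD1B-/- values lay between the WT values. The log2 fold change was 0.03 with a 95% interval from -0.43 to 0.50 (limma, adjusted p = 0.974), and it was -0.11 without WT replicate 2 and 0.17 without WT replicate 1. As shares of the summed TET RNA, Tet3 was 53.6% and 50.4% in WT and 62.2% and 59.8% in JMJD1B-/-, Tet2 was 33.9% and 38.1% against 31.8% and 30.9%, and Tet1 was 12.5% and 11.5% against 5.97% and 9.29%. The share of Tet3 was larger, and the shares of Tet1 and Tet2 smaller, in both JMJD1B-/- libraries than in both WT libraries. The summed level of the 3 TET genes was 46.0 and 40.2 RPKM in WT and 36.8 and 38.1 RPKM in JMJD1B-/-.

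Mbd1, a methyl-CpG binding repressor that also has CXXC domains, was at 26.0 and 25.7 RPKM in WT and at 22.5 and 24.5 RPKM in JMJD1B-/-. The groups did not overlap, and the mean in JMJD1B-/- was 90.9% of that in WT, with a log2 fold change of -0.14 and a 95% interval from -0.57 to 0.29 (limma, adjusted p = 0.831). It ranged from -0.20 to -0.08 as libraries were left out. Mbd2, the methyl-CpG binding subunit of NuRD, was at 77.7 and 84.0 RPKM in WT and at 107 and 83.4 RPKM in JMJD1B-/-. These groups overlapped, since JMJD1B-/- replicate 2 fell between the WT libraries, and the log2 fold change of 0.23 was 0.04 without JMJD1B-/- replicate 1 and 0.41 without replicate 2 (limma, adjusted p = 0.718 with all 4 libraries). The ratio of Mbd2 to Mbd1 was 2.99 and 3.27 in WT and 4.77 and 3.41 in JMJD1B-/-.

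**Figure D3:**
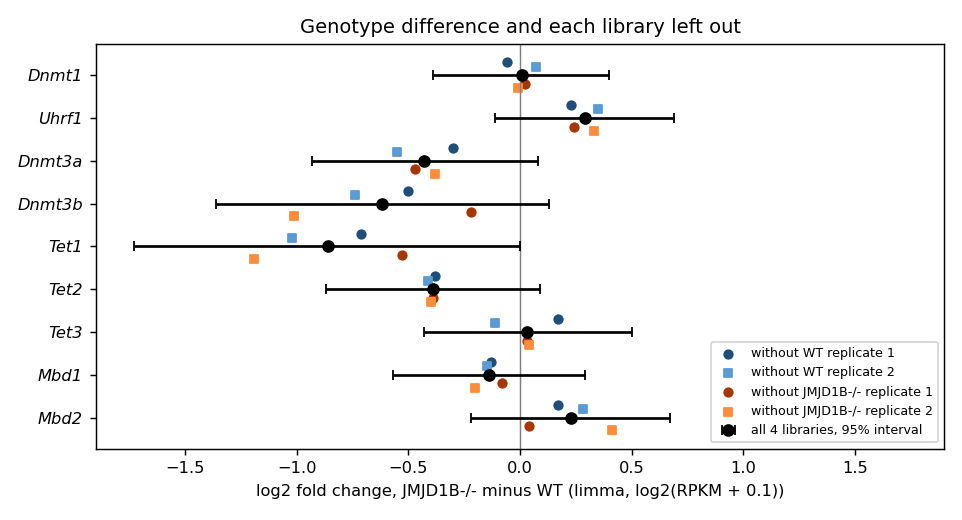
Log2 fold change of the 9 genes, JMJD1B-/- minus WT, from limma on log2(RPKM + 0.1), with its 95% interval (black) and the value with each of the 4 libraries left out (coloured). The interval of Tet1 just ends below 0, those of the other 8 genes include 0, and the coloured points of Tet2 lie between -0.41 and -0.38 while those of Dnmt3b lie between -1.01 and -0.22.

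The order of levels was the same in both genotypes by mean RPKM. Dnmt1 was highest, followed by Mbd2, Uhrf1, Mbd1, Tet3, Dnmt3a, Tet2, Dnmt3b and Tet1. In WT only the neighbours Dnmt3a and Tet2 overlapped between libraries. In JMJD1B-/- the pairs Dnmt1 and Mbd2, Mbd1 and Tet3, and Dnmt3a and Tet2 overlapped. The WT mean of Dnmt1 was at percentile 96.7 of all genes tested and that of Tet1 at percentile 31.0. The maintenance enzyme was thus far above the de novo enzymes in HSPCs, and Tet3 and Tet2 were above Tet1, in each of the 4 libraries.

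Beyond these 9, 88 genes of the same pathway were listed by function, and 80 of them were in the table and tested. Of the 80, 4 were called higher, where 3.81% of all genes were, and 3 lower, where 6.33% were, 73 were not called, and 0 passed after adjustment (limma). Their median log2 fold change was 0.04, against -0.02 over all genes tested. In 20 of the 80 each JMJD1B-/- value was under each WT value, which held for 22.7% of all genes, and in another 20 each was over, which held for 20.1%. Each of the 7 calls was lost without at least 2 of the 4 libraries in turn.

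Among 7 other writers and cofactors none was called, against 10.1% of all genes in either direction. Their median was 0.03, and the extremes were Cdca7, the activator of the remodeller HELLS, at -0.11 (adjusted p = 0.863), and Usp7, a deubiquitinase that stabilises UHRF1 and DNMT1, at 0.21 (adjusted p = 0.735). As libraries were left out, Cdca7 ranged from -0.20 to -0.02 and Usp7 from 0.05 without WT replicate 1 to 0.36 without WT replicate 2. Among 11 partners of maintenance at the replication fork 2 were called, 1 higher and 1 lower, against 3.81% and 6.33% of all genes. Fen1, the flap endonuclease of lagging strand synthesis, was at 35.1 and 44.8 RPKM in WT and at 53.8 and 63.2 RPKM in JMJD1B-/-, with a log2 fold change of 0.56 (limma, adjusted p = 0.433). Its call was lost without WT replicate 1, at 0.38, and without JMJD1B-/- replicate 2, at 0.44. Csnk1e, casein kinase 1 epsilon, was at 10.7 and 7.65 RPKM in WT and at 3.47 and 6.35 RPKM in JMJD1B-/-, with a log2 fold change of -0.93 (limma, adjusted p = 0.462). It was -0.50 without JMJD1B-/- replicate 1, -0.69 without WT replicate 1 and -1.17 without WT replicate 2, uncalled in all 3, and -1.36 without JMJD1B-/- replicate 2, where it remained called. The median of these partners was 0.05, and the 2 calls had opposite signs.

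Of 12 further methyl-CpG and MBD-domain readers, 1 was called lower, against 6.33% of all genes, and none higher, against 3.81%. Baz2b, a bromodomain protein with an MBD-like domain, was at 29.6 and 26.9 RPKM in WT and at 21.6 and 17.7 RPKM in JMJD1B-/- (log2 fold change -0.53, limma, adjusted p = 0.451). It stayed called without JMJD1B-/- replicate 1, at -0.67, and not without any other library, where it was -0.38 to -0.60. In 6 of the 12 both JMJD1B-/- libraries were below both WT libraries, against 22.7% of all genes, in 1 they were above, against 20.1%, and the median was -0.13. Of 7 CXXC proteins, which bind unmethylated CpG, none was called, against 10.1% of all genes in either direction. Their median was -0.15, and they ranged from Cxxc5 at -0.42 (adjusted p = 0.631) to Cxxc1, a subunit of the SETD1 complexes, at 0.16 (adjusted p = 0.784). Cxxc5 was -0.15 without JMJD1B-/- replicate 1 and -0.68, called, without JMJD1B-/- replicate 2, whereas Cxxc1 ranged from 0.15 to 0.17.

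Of 12 genes of base excision repair and its helpers, which remove oxidised methylcytosine after TET, 1 was called lower, against 6.33% of all genes. None was called higher, against 3.81%. Neil3, a DNA glycosylase, was at 30.4 and 27.4 RPKM in WT and at 18.4 and 22.7 RPKM in JMJD1B-/- (log2 fold change -0.50, limma, adjusted p = 0.479). It stayed called without JMJD1B-/- replicate 2, at -0.65, and not without any other library, where it was -0.35 to -0.57. None of 10 TET partners and genes of 2-oxoglutarate supply was called, against 10.1% of all genes in either direction. They ranged from Idh2, the mitochondrial isocitrate dehydrogenase, at -0.46 (adjusted p = 0.547), to Idh3a, a subunit of the dehydrogenase of the citric acid cycle, at 0.38 (adjusted p = 0.670). Both turned on the JMJD1B-/- libraries, with Idh2 at -0.21 without replicate 1 and -0.70, called, without replicate 2, and Idh3a at 0.72, called, without replicate 1 and 0.03 without replicate 2. Without WT replicate 1, Idh3a was 0.17 and Idh2 was -0.32, and without WT replicate 2 they were 0.59 and -0.60.

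Of 13 genes of the methyl donor cycle, which supplies S-adenosylmethionine, 2 were called, both higher. Of all genes 3.81% were called higher and 6.33% lower. Mtrr, methionine synthase reductase, was at 6.67 and 7.52 RPKM in WT and at 11.9 and 9.69 RPKM in JMJD1B-/- (log2 fold change 0.59, limma, adjusted p = 0.486). It stayed called without JMJD1B-/- replicate 2, at 0.74, and not without any other library, where it was 0.45 to 0.68. Mthfd1, a folate enzyme also used for nucleotide synthesis, was at 64.8 and 85.8 RPKM in WT and at 94.4 and 129 RPKM in JMJD1B-/- (log2 fold change 0.57, limma, adjusted p = 0.477). Its call was lost without WT replicate 1, at 0.36, and without JMJD1B-/- replicate 2, at 0.34. Of 12 NuRD genes, 1 was called higher, against 3.81% of all genes, and none lower, against 6.33%. Cdk2ap1, a small NuRD subunit, was at 61.0 and 53.0 RPKM in WT and at 80.3 and 72.3 RPKM in JMJD1B-/- (log2 fold change 0.42, limma, adjusted p = 0.489). It stayed called without JMJD1B-/- replicate 2, at 0.50, and not without any other library, where it was 0.32 to 0.52. The medians of these lists were 0.17 and 0.15. Both JMJD1B-/- values were over WT in 4 of the 13 methyl donor genes, 6 of the 12 NuRD genes and 4 of the 11 maintenance partners, against 20.1% of all genes, and both under it in 1, 2 and 1, against 22.7%. In the other lists both were over in 1 of 7 writers and cofactors, 1 of 7 CXXC proteins, 3 of 12 base excision genes and 2 of 10 TET partners, and both under in 1, 3, 4 and 2.

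**Figure D4:**
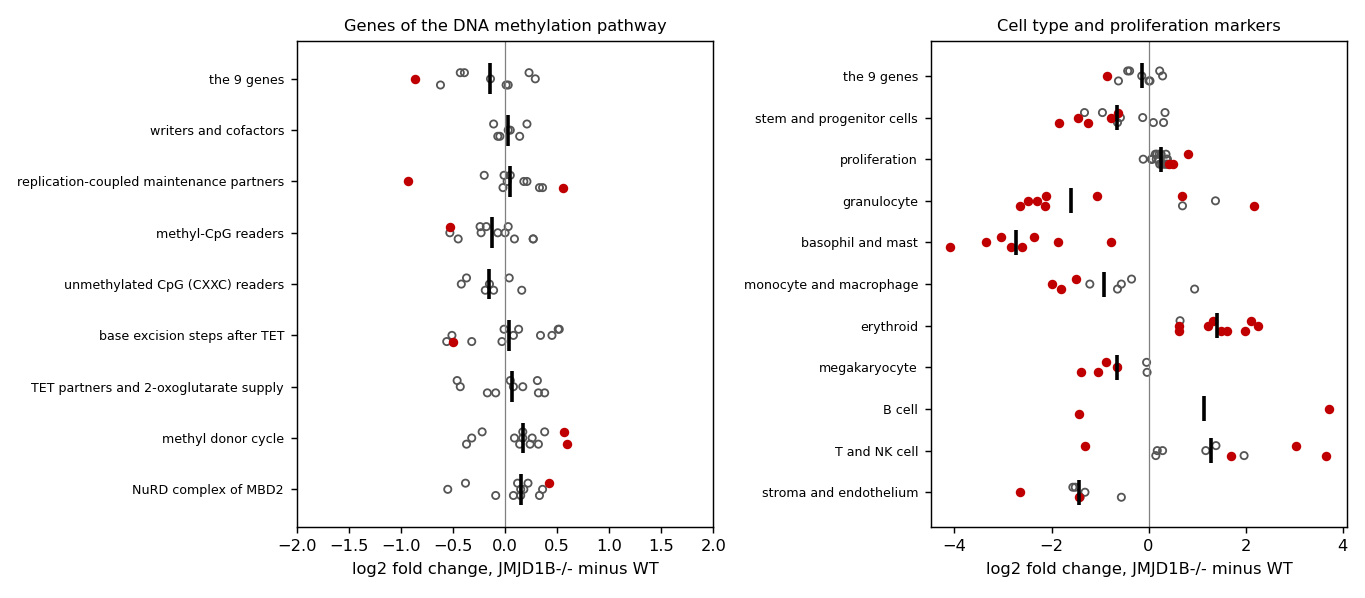
Log2 fold change, JMJD1B-/- minus WT, of the 9 genes and of pathway lists (left) and of marker lists (right), 1 circle per gene tested, red where the unadjusted limma p was under 0.05, with the median of each list as a black bar. The pathway medians lie between -0.15 and 0.17, whereas the medians of the basophil and mast and the erythroid markers are -2.73 and 1.41, and the granulocyte markers lie on both sides of 0, from -2.65 to 2.17.

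The other marker lists bear on the same libraries. Of the 13 stem and progenitor markers 5 were called lower and 0 higher, against 6.33% and 3.81% of all genes, and members ranged from -1.84 to 0.34. In 6 of the 13 the JMJD1B-/- libraries were both under WT, against 22.7% of all genes, and in 1, Tal1, both over, against 20.1%. Their median of -0.64 ranged from -0.84 to -0.41 as libraries were left out, and 1 and 2 were called without WT replicates 1 and 2. Granulocyte markers went both ways, with 6 of 10 tested called lower (6.33% of all genes), among them the primary granule genes Mpo, Elane and Prtn3, and 2 called higher (3.81%), S100a8 and S100a9. Their median was -1.59 and became -0.18 with no filter, when Ltf and Camp were also counted. Monocyte and macrophage markers had a median of -0.93, which was -1.88 without JMJD1B-/- replicate 1 and -0.31 without replicate 2, and megakaryocyte markers had a median of -0.64, which was -0.36 without JMJD1B-/- replicate 1. T and NK cell markers summed to 24.3 and 32.1 RPKM in WT, to 106 RPKM in JMJD1B-/- replicate 1 and to 22.1 RPKM in replicate 2, and stroma and endothelium markers to 45.1 and 73.0 RPKM in WT and 27.1 and 14.2 RPKM in JMJD1B-/-. Of 9 B cell markers 2 were in the table, and they went opposite ways. Blk was at 0.613 and 0.668 RPKM in WT and 24.6 and 3.71 RPKM in JMJD1B-/-, and Cd79b was at 3.28 and 1.99 against 1.22 and 0.631 RPKM. JMJD1B-/- replicate 1, the library with the lowest Tet1 and Dnmt3b, was also the one with the highest summed T and NK cell markers and the fewest reads, and the part of these in its values was not tested.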

How the data were processed

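The authors deposited 1 table of RPKM values per gene for 4 polyA RNA libraries, with 1 added to each value. The submitters' processing notes name mm9, TopHat2 and Novoalign without their roles. Counting program, annotation, strand setting and treatment of reads shared by paralogs are not given in the sources used here, so Dnmt3a and Dnmt3b could share reads with each other or with pseudogenes, and overlapping non-coding genes with Dnmt1, Dnmt3a, Tet1, Tet3 and Mbd2. Genes whose highest RPKM was under 1 are not in the table, and Dnmt3l, Dnmt3c, Dppa3, Zfp57, Cxxc4, Neil2 and Wt1 of the pathway lists were not analysed here.

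RPKM was the deposited value minus 1, and the 84 entries that share a name were averaged over 42 names. Limma 3.58.1 (R 4.3.3, trended eBayes after lmFit, genotype as the only term, all 4 libraries) was run on log2(RPKM + 0.1) wherever the mean RPKM reached 0.5, with Benjamini-Hochberg adjustment over 11863 genes. Fold changes on this scale understate those of low genes. Called means an unadjusted p under 0.05, two-sided. Library depth was estimated from low values: 34 genes gave the depth used, and the next depth was given by 2 genes. Read counts were not recovered for most genes, so no count test was run and depth covers counting error only. Reads per kb are that depth times RPKM. Promoter sequences are from RefSeq, GRCm38.p6, and share no coordinates with the mm9 files. The fit was tested on simulated data. Tables and figures used Python 3.11.15, pandas 2.3.3, numpy 2.4.6 and matplotlib 3.10.9.

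The 9 genes and all lists were chosen with earlier results of these data known. Named genes are the 9, Kdm3b and, per pathway list, each gene called (at most 4) or, with none called, the lowest and the highest. Marker genes named were chosen after their values were seen. No likeness between genes was computed from 4 libraries. Alternatives were 2 pseudocounts, 2 filters, 2 scalings, 2 other tests, a replicate block, entries of 1 name summed and each library left out.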

Additional observations from a re-analysis of the deposited data

How the results depend on the processing

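Over the 14 alternatives, the log2 fold changes of the 9 genes kept their sign and their side of the threshold in 113 of 126 pairs of gene and alternative. Signs turned for Dnmt1, to -0.089 with quantile normalization and, with libraries left out, to as low as -0.057 (range -0.057 to 0.074; -0.0071 without JMJD1B-/- replicate 2), and for Tet3, to -0.11 (range -0.11 to 0.17). The number of the 9 called lower, 1, became 0 with a mean RPKM of at least 1, with quantile normalization and with the replicate block, and ranged from 0 to 2 as libraries were left out. The gene-by-gene test also called 1, which was Tet2 and not Tet1. None was called higher in any alternative.

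Of the pathway genes, 3 were called lower, against 6 after median-ratio scaling, 8 after quantile normalization, 0 without a trend in limma, 1 with the gene-by-gene test and 6 with the replicate block, and 0 to 11 as libraries were left out. The 4 called higher became 0 without a trend and ranged from 0 to 8. After adjustment, 1 of the 9 (Dnmt3b) and 2 pathway genes passed without JMJD1B-/- replicate 2, and 0 in every other alternative.

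Over all genes, leaving out libraries gave 177 to 1819 lower and 123 to 1258 higher calls, against 751 and 452. Without WT replicate 1 the calls were 177 and 123, without WT replicate 2 they were 272 and 250, without JMJD1B-/- replicate 1 they were 1309 and 1258, and without JMJD1B-/- replicate 2 they were 1819 and 727. The share of lower among all calls, 62.4%, was 54.3% after median-ratio scaling and 51.8% after quantile normalization, where lower and higher calls numbered 750 and 630, and 715 and 664. Calls after adjustment numbered 5, against 18 with a pseudocount of 1, 3 with a pseudocount of 0.01, 3 with a mean RPKM of at least 1, 1 with either scaling, 0 without a trend or gene by gene, 256 with the replicate block, and 0 to 669 as libraries were left out. The median of all genes, -0.025, moved to 0.086 when JMJD1B-/- replicate 1 was left out and to -0.102 when replicate 2 was. The cause of these changes was not tested.

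Replicate numbers 1 and 2 occur in both genotypes, but the labels do not tie them to a litter or batch, and deviations of same-numbered libraries correlated at -0.054 over 11863 genes, so the block is reported as an alternative only. A library left alone in its group was assumed to vary like the other genotype. Depth limited the low genes most, and in the shallowest library Tet1 rested on about 13.4 reads per kb.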
